A study of Canis lupus familiaris with 36 samples.

Results

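CD28, ICOS and ICOSLG were taken as 3 of the 48 genes that a custom NanoString nCounter panel measured in canine oral squamous cell carcinoma (OSCC). They were taken by their row names, with earlier results of these data known. CD28 is the receptor that gives a T cell its main second signal when the T cell receptor meets antigen. ICOS is a related receptor that appears on T cells once they are activated, and it is abundant on follicular helper and regulatory T cells. Its ligand, ICOSLG, sits on B cells, dendritic cells and macrophages and can also be made by epithelial, endothelial and tumor cells, whereas CD80 and CD86, the ligands of CD28, were not on the panel. CTLA4 and PD-1 are inhibitory receptors of the same family. In the dog annotation UU_Cfam_GSD_1.0, CD28, CTLA4 and ICOS follow each other as neighbouring protein-coding genes, and ICOSLG lies elsewhere, between GATD3A and DNMT3L.

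The samples were 34 spontaneous oral tumors and 2 pieces of normal oral tissue labelled mucosal stroma (patients 8 and 9 of the numbering in the labels), from pet dogs of many breeds and with no experimental treatment stated in the labels. RNA came from bulk tissue, archived fixed or frozen, so fewer cells of a type and less RNA per cell cannot be told apart. The dogs were fewer than the samples and one gave both a tumor and a mucosa sample, but the labels tie no samples to each other, so every p-value treats samples as independent. The nCounter counts transcripts with color-coded probes and without amplification, and the deposited values are counts scaled so that 4 housekeeping genes have the same geometric mean in each sample. All levels are log2 of this scaled signal, so a difference of 1 is a doubling, and levels of different probes are not compared with each other.

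Depth, recovered as the sum of counts of all 48 genes, lay between 27092 and 665587 in tumors (median 224716) and at 117883 and 149876 in mucosa. The panel's spiked positive controls split the samples into 2 sets, called batches here, that the labels do not name. The second control over the third gave 2.59 to 2.85 in a first batch of 7 tumors and both mucosa samples, and 1.54 to 1.77 in a second batch of 27 tumors. Patients 33 and 34 had the most alike tumors (mean absolute log2 difference 0.192 over the immune genes, where the next pair had 0.511) and had the highest CD3e, so relations across tumors were also computed without them. Tissue identity could be checked only in part, since no epithelial marker was measured.

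CD28 and ICOS varied over a wide range among the tumors, and the same tumors stood at both ends. CD28 had a mean log2 level of 7.75 ± 1.10 (SD, n = 34) in tumors, with a lowest value of 5.74, a median of 7.89 and a highest value of 9.91, an 18.1-fold span. In the mucosa samples it was 7.54 in patient 8 and 6.01 in patient 9. The groups overlapped, with 20 tumors above both mucosa samples, 11 between them and 3 below both. The lowest CD28 levels were in the tumors of patients 2 and 15 and the highest in those of patients 33 and 34.

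ICOS had a mean log2 level of 9.67 ± 1.01 (SD, n = 34) in tumors, from 7.26 through a median of 9.74 to 11.35, a 17.1-fold span. The mucosa samples had ICOS levels of 8.48 in patient 8 and 6.45 in patient 9. Here 30 tumors lay above both mucosa samples and 4 between them. The lowest ICOS level was again in the tumor of patient 15 and the highest again in those of patients 33 and 34.

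ICOSLG had a mean log2 level of 9.23 ± 0.81 (SD, n = 34) in tumors, with a lowest value of 7.82, a median of 9.09 and a highest value of 11.40, a 12.0-fold span. The mucosa samples were far apart in the ligand, at 7.78 in patient 8 and 10.21 in patient 9, and enclosed 30 of the 34 tumors. The highest ICOSLG level was in the tumor of patient 19 and the lowest in that of patient 5, neither of which was at an end of the receptors' range. The mucosa sample low in both receptors, that of patient 9, was therefore the one high in the ligand.

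All 3 genes were above the negative-control background (mean plus 2 SD of the negative controls) in all 36 samples. The fewest counts in a tumor were 22 for CD28, 85 for ICOS and 152 for ICOSLG. The mucosa sample of patient 8 held 154 counts of CD28, 297 of ICOS and 183 of ICOSLG, and that of patient 9 held 60, 81 and 1104.

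**Figure D1:**
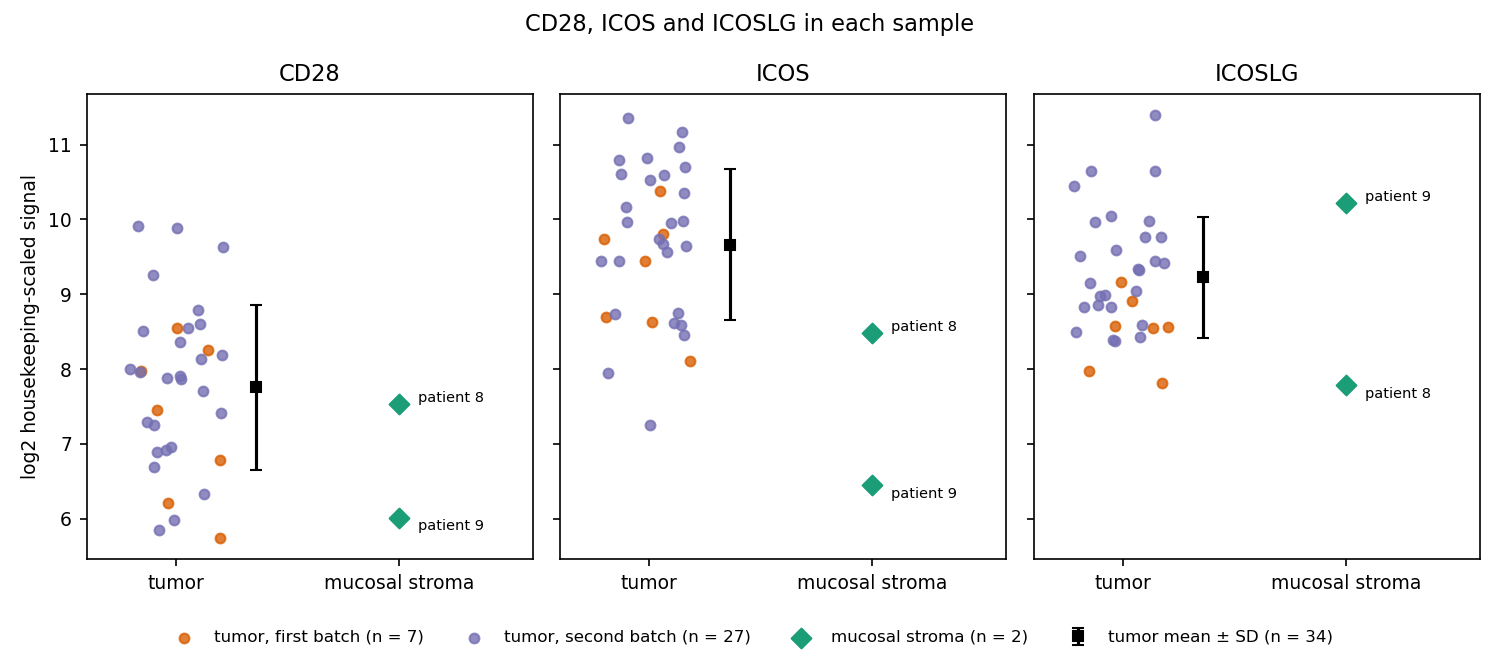
Log2 housekeeping-scaled signal of CD28, ICOS and ICOSLG in each sample. Circles are tumors, colored by positive-control batch, the black square and bar are the tumor mean ± SD (n = 34), and diamonds are the 2 mucosal stroma samples. For ICOS 30 tumors sit above both diamonds, for CD28 20 do, and for ICOSLG 4 do.

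Whether the costimulatory genes differed between tumor and normal mucosa was tested with limma over all 44 immune genes of the panel. ICOS was higher in tumors by 2.20 on the log2 scale (SE 0.73, 95% confidence interval 0.72 to 3.68, limma adjusted p = 0.0174), which is 4.60-fold, and the exact permutation test over 630 arrangements of the group labels gave p = 0.00794 (two-sided). It was the member among 3 that passed, where 34.1% of the immune genes passed in either direction (15 of 44) and 31.8% passed as higher in tumors. The call was lost without the mucosa sample of patient 9, with a difference of 1.18 (limma adjusted p = 0.420), and with the batch as a term, with a difference of 1.79 (limma adjusted p = 0.114). The median of the immune genes was itself 1.21 higher in tumors. Relative to it ICOS was higher by 0.99 (limma adjusted p = 0.105), and the called genes then split into 5 higher and 7 lower in place of 14 higher and 1 lower.

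CD28 differed by 0.98 (SE 0.78, 95% confidence interval -0.60 to 2.56, limma adjusted p = 0.318), and the tumor mean was below that of mucosa by 0.23 after each sample was set to an equal median of the immune genes. ICOSLG differed by 0.23 (SE 0.63, 95% confidence interval -1.04 to 1.50, limma adjusted p = 0.788), an interval that holds changes of both signs. Its direction turned with the mucosa sample left out, from -0.99 without patient 8 to 1.44 without patient 9. The other receptors of the family, CTLA4 and PD-1, were called higher (limma adjusted p = 0.0174 and 0.0033), CTLA4 by 2.23. PD-1 was below background in both mucosa samples, with 9 and 11 counts. Against that background the mean of all 34 tumors was at least 8.27-fold higher with the housekeeping scaling. Of the housekeeping genes, SDHA had log2 levels of 12.10 and 13.05 in mucosa against a tumor mean of 11.82. Without SDHA the ICOS difference was 1.95, and the PD-1 bound was not computed that way. Within the first batch, which held both mucosa samples, the bound is lower. There the tumors had a mean log2 PD-1 level of 5.79, against 7.79 in the second batch and 4.33 for the mucosa background. CD3e, a chain of the T cell receptor complex and the panel's general T cell gene, was 8.98 and 6.85 in the mucosa samples and 10.28 ± 1.39 (SD, n = 34) in tumors, a difference of 2.36 (limma adjusted p = 0.0535). Of the 17 T cell rows of the panel, CD3e included, 7 were called higher and 1 lower.

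Differences between 2 genes inside a sample do not depend on the scaling. ICOS minus CD28 was 1.91 ± 0.36 (SD, n = 34) in tumors, with a lowest value of 1.08, a median of 1.91 and a highest value of 2.49, against 0.95 in the mucosa sample of patient 8 and 0.43 in that of patient 9. All 34 tumors lay above both mucosa samples. The mean difference between the groups was 1.22, so that ICOS relative to CD28 was more than a doubling higher in tumors (exact permutation test, two-sided, p = 0.00159, the smallest that 630 arrangements can give; adjusted p = 0.0175 over all 946 pairs of immune genes). Among those 946 pairs, 11.7% had every tumor on one side of both mucosa samples and 20.3% passed the adjusted test. Within the first batch the difference was 1.29 (exact permutation p = 0.0278, the smallest that 36 arrangements can give), and with 1 mucosa sample left out it was 1.48 (patient 8 omitted) and 0.96 (patient 9 omitted). This pair was added after the values had been seen.

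Each receptor was then read against CD3e. CD28 minus CD3e was -2.52 ± 0.57 (SD, n = 34) in tumors, from -4.27 through a median of -2.46 to -1.45, against -1.44 and -0.83 in mucosa. All 34 tumors were below both mucosa samples, the nearest by less than 0.01, and the groups differed by -1.38 (exact permutation p = 0.00317, adjusted p = 0.0250 over the 946 pairs). In the first batch this difference was -0.83 (exact permutation p = 0.0278). Without either mucosa sample it no longer passed, at -1.69 (exact permutation p = 0.0571) and -1.08 (exact permutation p = 0.0857), where 1 mucosa sample remains.

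ICOS minus CD3e, by contrast, was -0.61 ± 0.69 (SD, n = 34) in tumors and -0.50 and -0.40 in mucosa, with 15 tumors above both and 19 below both. The groups differed by -0.16 (exact permutation p = 0.686). In the first batch the sign was the opposite, with a difference of 0.45 and every one of its 7 tumors above both mucosa samples (exact permutation p = 0.0278). CD28 was thus lower in tumors when read against CD3e, ICOS was not called different from CD3e over all samples, and the test of ICOS against CD28 itself passed.

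Receptor relative to ligand gave no stable difference. ICOS minus ICOSLG was 0.44 ± 1.17 (SD, n = 34) in tumors, from -2.07 through a median of 0.75 to 1.97, and 0.70 and -3.77 in mucosa. The mean difference of 1.97 (exact permutation p = 0.0381, adjusted p = 0.109 over the 946 pairs) rested on the mucosa sample of patient 9. Without that sample it was -0.26 (exact permutation p = 0.943).

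**Figure D2:**
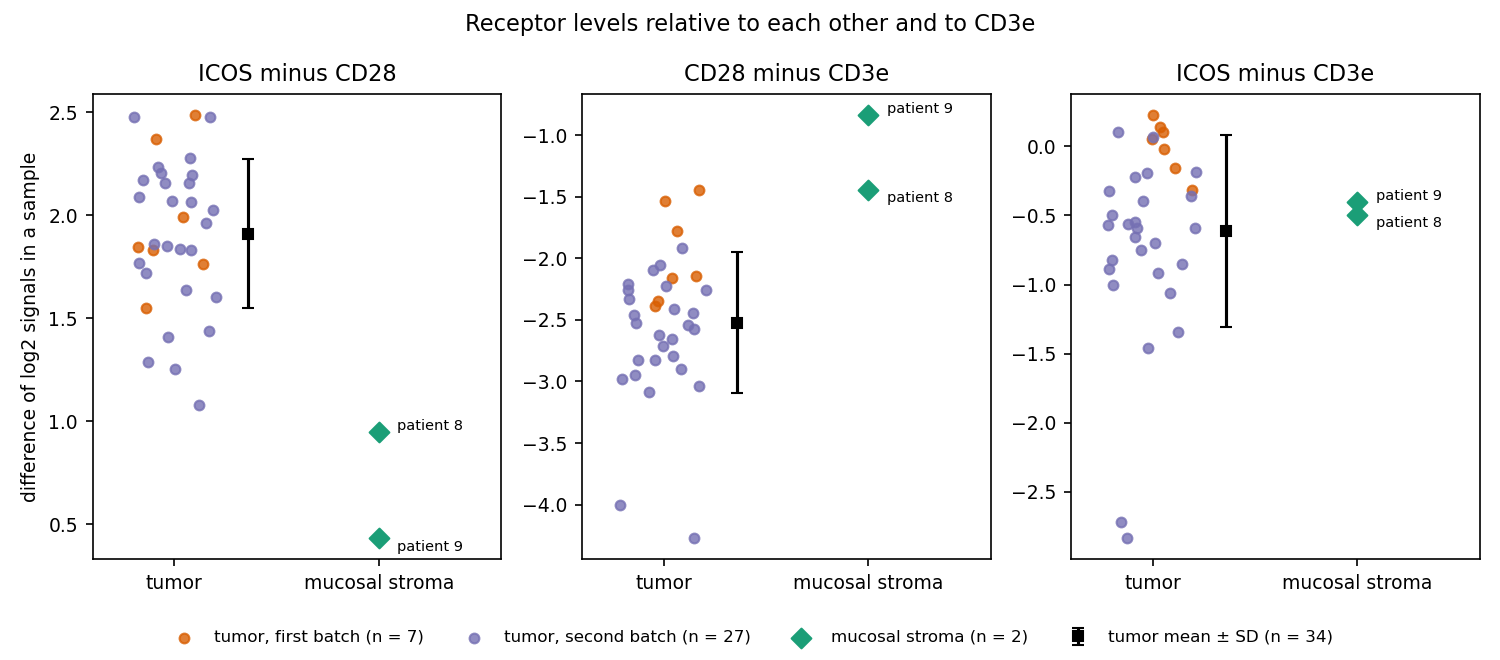
Difference of log2 signals inside each sample for ICOS minus CD28, CD28 minus CD3e and ICOS minus CD3e. Circles are tumors colored by positive-control batch, squares with bars the tumor mean ± SD (n = 34) and diamonds the 2 mucosal stroma samples. All 34 tumors lie above the mucosa samples for ICOS minus CD28 and below them for CD28 minus CD3e, while for ICOS minus CD3e they lie on both sides.

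Across the 34 tumors the receptors rose and fell together. CD28 and ICOS had a Pearson r of 0.945 (95% confidence interval 0.892 to 0.973, permutation adjusted p = 0.000166 over 946 pairs of immune genes) and a Spearman rho of 0.965 (adjusted p = 0.000166), which made them the second most correlated pair of the panel after CD27 and CD3e. Over all pairs the median r was 0.204, and 30.7% of pairs passed the adjusted test, 29.5% as positive and 1.16% as negative. The r of CD28 and ICOS was 0.940 without the 2 tumors farthest from the median of CD28, 0.938 without patients 33 and 34, 0.941 in the second batch (n = 27) and 0.975 in the first (n = 7, exact permutation p = 0.000595).

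The genes nearest to both receptors were the same 2. For CD28 they were CD3e (r = 0.920, rho = 0.903) and CTLA4 (r = 0.911, rho = 0.918), and for ICOS CTLA4 (r = 0.925, rho = 0.911) and CD3e (r = 0.881, rho = 0.914), each with an adjusted permutation p of 0.000166 for r and for rho. CTLA4 is the inhibitory counterpart of CD28 and the gene that lies between CD28 and ICOS in the genome. In the first batch alone these 4 values of r lay between 0.877 and 0.973, and in the second between 0.883 and 0.940. CD27 came close behind them, with an r of 0.903 with CD28 and 0.863 with ICOS. The correlations of CD28 with the other named immune cell genes were lower, at 0.790 for CD8a, the co-receptor of cytotoxic T cells, 0.774 for FOXP3, the regulatory T cell factor, 0.759 for CD40, a receptor of B and antigen presenting cells, and 0.666 for PD-1. For ICOS they were 0.715, 0.735, 0.715 and 0.638. All 8 passed the adjusted test with the housekeeping scaling. With equal medians of the immune genes none of the 8 passed, with an r of 0.439, 0.302, 0.181 and 0.202 for CD28 and of 0.208, 0.285, 0.206 and 0.156 for ICOS, in the same order.

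At the other end, no gene had a called negative relation with either receptor under the housekeeping scaling over all 34 tumors. The lowest values were -0.304 for IL8, a neutrophil chemokine (adjusted p = 0.183), and -0.297 for KDM6B, a histone demethylase (adjusted p = 0.199), with CD28, and -0.324 for KDM6B (adjusted p = 0.148) and -0.237 for TGFb (adjusted p = 0.326) with ICOS. With values centred within batches KDM6B had an r of -0.416 with CD28 and -0.439 with ICOS, and both passed. With equal medians of the immune genes 8 genes were called negative with CD28 and 3 with ICOS, among them KDM6B with both (-0.698 and -0.505) and TGFb with ICOS (-0.471). In the 25 deepest tumors IL8 was called with CD28 (-0.563, adjusted p = 0.0172). Of the 17 T cell rows, 12 were called with CD28 and 12 with ICOS, all positive, with a median r of 0.666 and 0.638. Over all 41 other immune genes the counts were 22 and 21, with a median r of 0.490 and 0.449. Setting each tumor to an equal median of the immune genes lowered these counts, for CD28 to 4 positive and 3 negative T cell rows and for ICOS to 3 positive, and CD28 with ICOS, CD3e and CTLA4 then had an r of 0.795, 0.734 and 0.697.

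No relation of the ligand to its receptor was called under the housekeeping scaling, which does not exclude a moderate one. ICOS and ICOSLG had an r of 0.180 (95% confidence interval -0.168 to 0.489, adjusted p = 0.482) and a rho of 0.202 (adjusted p = 0.448), and CD28 and ICOSLG had an r of 0.305 (adjusted p = 0.185) and a rho of 0.279 (adjusted p = 0.254). Within batches ICOS and ICOSLG had an r of 0.137 in the second and -0.275 in the first (n = 7, exact permutation p = 0.540). In the 25 deepest tumors the values were higher but did not pass. There ICOS and ICOSLG had an r of 0.353 (permutation adjusted p = 0.194), and CD28 and ICOSLG one of 0.438 (permutation adjusted p = 0.0836). With equal medians of the immune genes the relation was negative, with an r of -0.493 for ICOS and ICOSLG (adjusted p = 0.0246) and -0.460 for CD28 and ICOSLG (adjusted p = 0.0408), and the 2 ways of scaling therefore differ in sign. The equal-median scaling subtracts what the immune genes share in a tumor, so these values are relative to that median. They do not by themselves show an inverse relation of the levels. ICOSLG and CD3e had an r of 0.357 (adjusted p = 0.102), and this passed in the 25 deepest tumors, at 0.574 (adjusted p = 0.0150).

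**Figure D3:**
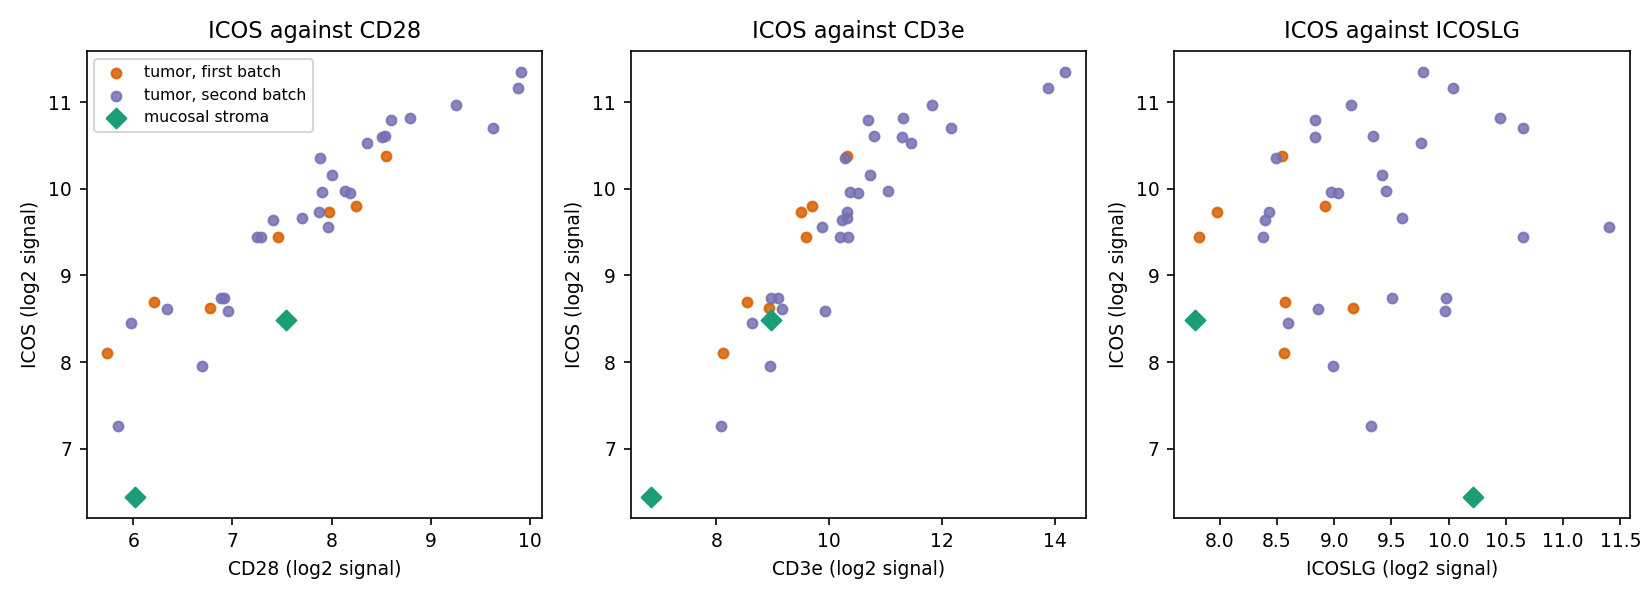
ICOS against CD28, CD3e and ICOSLG in each sample, all as log2 housekeeping-scaled signal. Circles are tumors colored by positive-control batch and diamonds the 2 mucosal stroma samples. The tumors form a narrow band for CD28 (r = 0.945), a band for CD3e (r = 0.881) with patients 33 and 34 at its far right, and no band for ICOSLG (r = 0.180), and the mucosa samples lie below the CD28 band.

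The 3 genes nearest to ICOSLG differed from those nearest to the receptors, but 2 of them were related to the receptors too. These were PD-1 (r = 0.666 with CD28 and 0.638 with ICOS) and FOXP3 (0.774 and 0.735), so neither was particular to ICOSLG. Its highest correlations were with PD-1 (r = 0.668, rho = 0.635, adjusted p = 0.000403 and 0.000910), with Pax5, the B cell lineage factor (r = 0.631, rho = 0.631, adjusted p = 0.00110 and 0.00114), and with FOXP3 (r = 0.589, rho = 0.520, adjusted p = 0.00189 and 0.0105). Without the 2 tumors farthest in ICOSLG they were 0.622, 0.621 and 0.430. In the second batch they were 0.594, 0.659 and 0.552, whereas in the 7 tumors of the first batch they were -0.200, -0.111 and -0.035, none of which differed from 0 (exact permutation p = 0.661, 0.819 and 0.943). With equal medians of the immune genes Pax5 still passed (r = 0.526, adjusted p = 0.0136), whereas PD-1 (r = 0.332, adjusted p = 0.186) and FOXP3 (r = 0.339, adjusted p = 0.175) did not. FOXP3 also lost its call in the 25 deepest tumors (r = 0.445, adjusted p = 0.0765). Pax5 was above background in 27 of the 34 tumors and PD-1 in 33.

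The lowest correlations of ICOSLG were with TNFSF10, the death ligand TRAIL (r = -0.419, adjusted p = 0.0453, but rho = -0.271, adjusted p = 0.272), and with IL8 (r = -0.401, adjusted p = 0.0574). ICOSLG was called with 3 of the 17 T cell rows and with 3 of the 6 antigen presenting and B cell rows (CD40, CD70, CLEC4C, Pax5, IL12 and IL10), namely Pax5, IL10 (r = 0.541, adjusted p = 0.00367) and IL12 (r = 0.461, adjusted p = 0.0245). By rank IL12 did not pass (rho = 0.420, permutation adjusted p = 0.0528), and 2 of the 6 rows were called. Over all 41 other immune genes 9 were called, 8 positive and 1 negative. With equal medians these counts were 1 positive and 2 negative T cell rows, 4 positive antigen presenting and B cell rows, and 5 positive and 4 negative genes over all 41.

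Depth and batch moved with some of these values. The log2 factor by which a sample's counts had been scaled, which is high where there was little RNA, had an r of 0.439 with ICOSLG (adjusted p = 0.0585 over the 44 immune genes), -0.198 with CD28, -0.273 with ICOS, 0.596 with Pax5 (adjusted p = 0.00836) and -0.520 with TNFSF10 (adjusted p = 0.0252). By this test 13.6% of the genes passed. By rank the values were a rho of -0.476 for ICOS (adjusted p = 0.0258) and -0.404 for CD28 (adjusted p = 0.0537), against 0.304 for ICOSLG (adjusted p = 0.155). Tumors of the second batch had ICOSLG levels 0.91 higher than those of the first (permutation adjusted p = 0.0645), and PD-1 levels 2.00 higher (adjusted p = 0.0167). PD-1 was the single gene of 44 that passed, or 2.27%. In the 25 deepest tumors ICOSLG had an r of 0.575 with Pax5, 0.621 with PD-1 and -0.040 with TNFSF10, and with values centred within batches of 0.616, 0.554 and -0.401.

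The difference between receptor and ligand in their relations was tested directly, over 123 tests (3 member pairs with 41 other genes), of which 13.8% passed. CD28 and ICOS differed in r with none of the 41 genes by the adjusted permutation test, the nearest being IL8 (difference -0.137, unadjusted p = 0.0151, adjusted p = 0.0913). ICOSLG differed from CD28 with 10 genes and from ICOS with 7, always with the higher r on the side of the receptor. For CTLA4 the r was 0.925 with ICOS and 0.270 with ICOSLG, a difference of 0.655 (adjusted p = 0.0252). For TNFSF10 it was 0.581 with ICOS and -0.419 with ICOSLG, a difference of 1.00 (adjusted p = 0.000615). In the 25 deepest tumors these differences were 0.535 (adjusted p = 0.221) and 0.658 (adjusted p = 0.152), and by rank the one for CTLA4 was 0.581 (adjusted p = 0.0544). For CD3e the difference passed between CD28 and ICOSLG (0.563, adjusted p = 0.0333) but not between ICOS and ICOSLG (0.524, adjusted p = 0.0913), and the latter passed with values centred within batches (0.665, adjusted p = 0.0195). The former did not pass by rank (0.519, adjusted p = 0.0716) or in the 25 deepest tumors (0.350, adjusted p = 0.330).

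To see what the genes shared beyond the T cell content that CD3e measures, CD3e was taken out of each gene by regression and the residuals were correlated. CD28 and ICOS kept a partial r of 0.727 (adjusted p = 0.00129 over 903 pairs), ICOS and CTLA4 one of 0.780 and CD28 and CTLA4 one of 0.751 (adjusted p = 0.00129 for both). Here 5.98% of pairs passed, 4.54% as positive, with a median partial r of 0.038. Without patients 33 and 34 these 3 values were 0.628, 0.700 and 0.673, and all passed. No other T cell row was called with CD28 given CD3e, and 1 other was called with ICOS, GATA3, the type 2 helper T cell factor, at -0.524 (adjusted p = 0.0333). That value was -0.335 without patients 33 and 34 (adjusted p = 0.297). Over all 40 other immune genes, the T cell rows included, 4 were called with CD28 given CD3e, 2 positive and 2 negative. With ICOS 3 were called, 1 positive and 2 negative.

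Given CD3e, ICOS and ICOSLG had a partial r of -0.305 (adjusted p = 0.332) and CD28 and ICOSLG one of -0.067 (adjusted p = 0.867). ICOSLG kept PD-1 at 0.652 (adjusted p = 0.00602), Pax5 at 0.558 (adjusted p = 0.0215), FOXP3 at 0.513 (adjusted p = 0.0473) and TNFSF10 at -0.749 (adjusted p = 0.00129). In the 25 deepest tumors these were 0.290, 0.348, -0.107 and -0.484, and none of the 4 passed. With values centred within batches PD-1, Pax5 and TNFSF10 passed, and FOXP3 was at 0.505, little changed but just over the threshold (adjusted p = 0.05005).

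**Figure D4:**
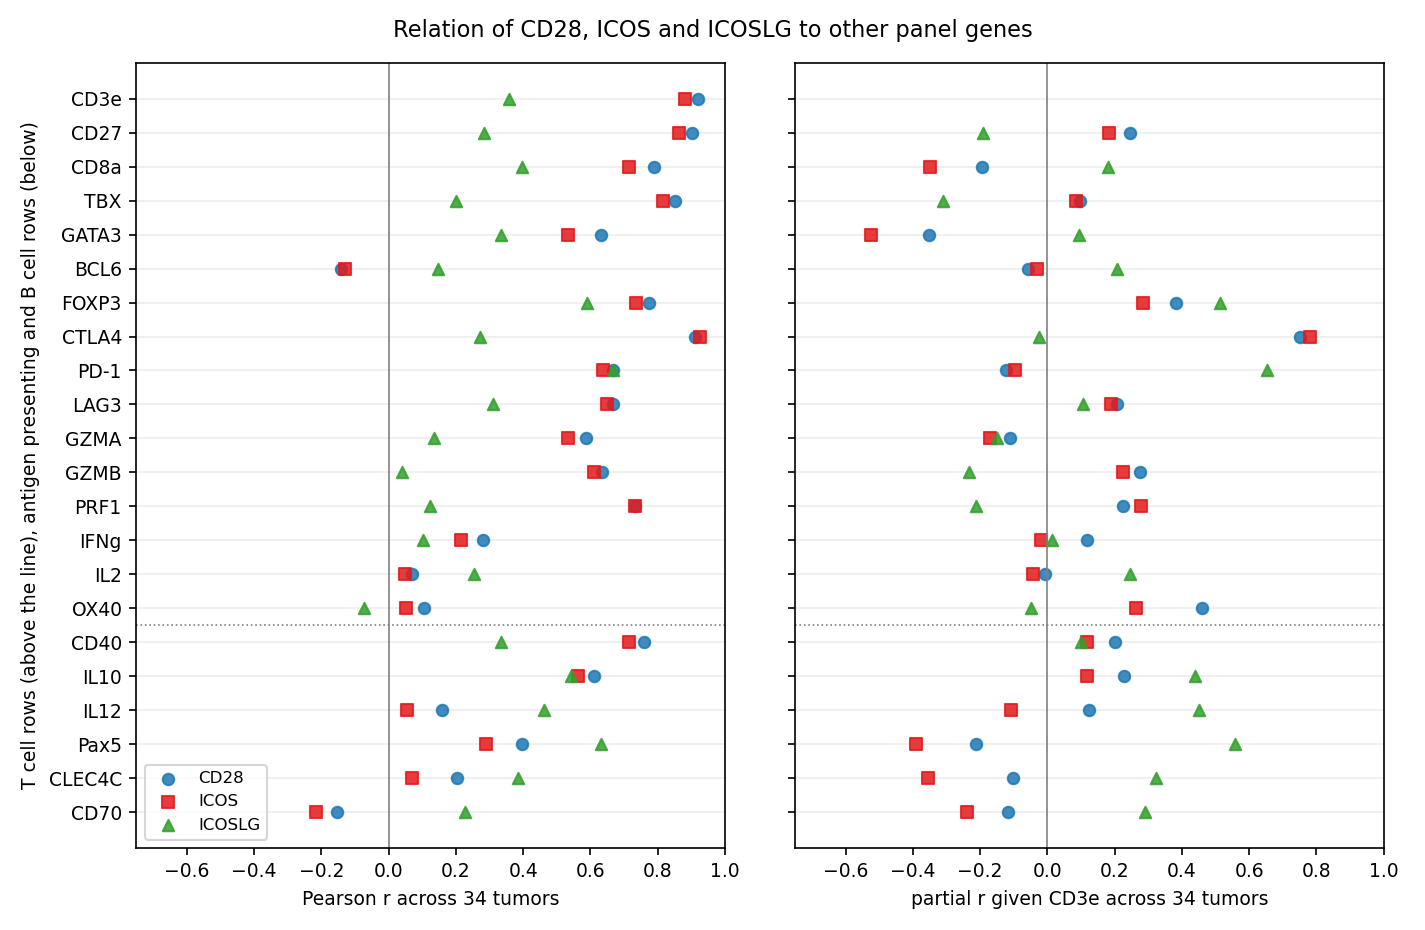
Pearson r (left) and partial r given CD3e (right) of CD28, ICOS and ICOSLG with other panel genes across the 34 tumors, with T cell rows above the dotted line and antigen presenting and B cell rows below it. On the left CD28 and ICOS lie close together in nearly every row, while on the right they are farther apart in several rows. With CD3e taken out CTLA4 stays high for both (0.751 and 0.780), while ICOSLG is highest with PD-1 (0.652).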

How the data were processed

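RNA from 34 tumors and 2 mucosal stroma samples had been hybridized to a custom canine NanoString panel. It held 44 immune genes, 6 positive and 6 negative controls, and ALAS1, GUSB, RPL30 and SDHA as housekeeping genes. The authors counted the probes on an nCounter system and deposited a signal table in which the counts of each gene were multiplied by a factor of the sample, which makes the geometric mean of the housekeeping genes equal, while the control rows are unscaled counts. No pooling of samples is stated, and the software version was not given in the sources used here. Of 1728 deposited gene values, 1727 (99.9%) were whole counts times the factor (tolerance 0.02), which gave each sample's factor, depth and background (mean plus 2 SD of the negative controls). Counting error follows from these counts, and no molecular duplicates arise since nothing is amplified.

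Values were taken as log2 with no pseudocount. Tumors were compared with mucosa by limma 3.58.1 (R 4.3.3; lmFit, eBayes) (p-values adjusted by Benjamini-Hochberg over 44 immune genes, threshold 0.05) and by two-sided exact permutation tests over all arrangements of the group labels. Relations across tumors are Pearson r and Spearman rho with 100000 permutations (smallest p 1e-05), adjusted over all pairs of immune genes, and partial r is that of residuals on CD3e. A difference between correlations was tested by permuting the third gene against the difference of both standardised members. The scripts were tested on simulated data. Batches were set at a positive-control ratio of 2.0.

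Genes named in the text were the members, CD3e, CTLA4, PD-1, FOXP3, CD8a and CD40, and for each member the 3 genes with the highest and the 2 with the lowest r. IL10, IL12 and GATA3 are named from the lists because they were called, after their values were seen. CD27 is named, also after its values were seen, because of its high r with CD3e and with both receptors. The T cell rows were CD3e, CD8a, CD27, CTLA4, PD-1, LAG3, TBX, GATA3, FOXP3, BCL6, GZMA, GZMB, PRF1, IFNg, IL2, OX40 and 1 gene not reported here by name. A list of 3 inhibitory ligand rows (CD274, PD-L1 and PDCD1LG2) was also counted, with 1 called with CD28, 1 with ICOS and 0 with ICOSLG by permutation (rho gave the same counts). Members, lists and tests were chosen with earlier results of these data known. Alternatives were other scalings, pseudocounts of 1 and 20, a background floor, a minimum mean log2 level of 5, other tests, batches, depth and samples left out. Sequences of the genes were not used here.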

Additional observations from a re-analysis of the deposited data

How the results depend on the processing

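Of the alternatives, 507 values kept their direction and side of the threshold, 59 lost and 13 gained a call, 32 turned direction and 4 counts moved by over 1.5 times. Scaling: with equal medians of the immune genes, the tumor difference was -0.23 for CD28 and -0.98 for ICOSLG, and ICOS lost its call (0.99); r turned for ICOSLG with ICOS (-0.493), CD28 (-0.460), CD3e (-0.358), CTLA4 (-0.287) and CD8a (-0.237), and the difference of r with CD3e between ICOS and ICOSLG passed (0.930). Without SDHA among the housekeeping genes, ICOSLG differed by -0.021. Mucosa samples: leaving out either moved the difference from 1.18 to 3.22 for ICOS, from -0.99 to 1.44 for ICOSLG and from 0.22 to 1.74 for CD28, called genes to between 4 and 7, and the differences to between -1.69 and -1.08 for CD28 minus CD3e, -4.42 and 0.15 for ICOSLG minus CD3e, and -0.26 and 4.20 for ICOS minus ICOSLG. Batch: as a term it left 7 genes called and gave 1.79 for ICOS (not called) and -0.49 for ICOSLG, and the first batch alone gave the same differences with 9 genes called; there ICOS minus CD3e differed by 0.45 and ICOS minus ICOSLG by 2.28 (not called). The unequal-variance test did not call ICOS (2.20, adjusted p = 0.438).

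In the 7 tumors of the first batch, where few pairs can pass, r lost its call for CD28 with ICOS (0.975) and CD3e (0.970), for ICOS with CD3e (0.973) and for CD28 and ICOS given CD3e (0.553), and r turned for ICOSLG with ICOS (-0.275), CD28 (-0.172), CD3e (-0.214), PD-1 (-0.200), Pax5 (-0.111), FOXP3 (-0.035), CD8a (-0.179), CD40 (-0.630) and IL8 (0.041). Given CD3e, the partial r there turned for ICOS with CTLA4 (-0.188) and for ICOSLG with CD28 (0.150), PD-1 (-0.092) and Pax5 (-0.460), and CD28 with ICOSLG also turned with centred values (0.077) and in the second batch (0.161). In the 25 deepest tumors, ICOSLG and CD3e passed (0.574) and ICOSLG and FOXP3 given CD3e turned (-0.107). The difference of r with CD3e between ICOS and ICOSLG passed with centred values (0.665), and that between CD28 and ICOS, near 0, turned with rho (-0.012) and in the first batch (-0.0024). Omitting patients 33 and 34, an alternative chosen after seeing the data, ended the calls of ICOSLG with FOXP3 (0.512) and of ICOS with GATA3 (-0.335), both given CD3e, and changed none of the calls for CD28 with ICOS, CD3e or CTLA4. The cause of these changes was not tested.

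Count models (edgeR, DESeq2 and TMM scaling) on the recovered counts were not run. No paired analysis was possible because the labels number the patients through the series and tie no tumor to a mucosa sample. With 2 mucosa samples, both in the first batch, and counts as low as 22 for CD28, small tumor differences of CD28 and ICOSLG were not detectable.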

Other observations

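CD28 and ICOSLG had exactly the same recovered count in 2 tumors of the first batch, 390 counts each in the tumor of patient 1 and 202 each in that of patient 3. Equal counts above 100 occurred 22 times among all 946 pairs of immune genes over the 36 samples, in 21 pairs, so this was the single pair in which it happened more than once.

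The mucosa samples were unlike each other in all 3 genes. That of patient 8 was within the range of the tumors for CD28 and ICOS (7.54 and 8.48), whereas that of patient 9 had an ICOS level of 6.45, under the lowest tumor at 7.26, and an ICOSLG level of 10.21 that 4 tumors exceeded. CD3e was also lower in the mucosa of patient 9 (6.85 against 8.98).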
